A study of Danio rerio with 11 samples.

Results

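The comparison described here set eyes of 5 dpf zebrafish larvae mutated in the eMIC domain of srrm3 against eyes of wild-type (WT) larvae of the same age (dpf, days post fertilization). Each genotype was 1 RNA-seq library made from 20 pooled eyes, so these were 2 of the 11 libraries of the series, chosen by their genotype and age labels. The other 9 libraries were srrm3 mutant and WT eyes at 48, 60 and 72 hpf (hours post fertilization; 1 library per genotype and age, described as siblings sorted by fin clip), 2 retina pools of adult WT fish and 1 pool of WT heads at 24 hpf. All larvae were kept on a daily cycle of light and dark, and the labels name no further allele or agent. They do not say that the 5 dpf larvae were siblings, nor how the mutants of the 2 sets of ages are related. The 5 dpf and adult RNA was extracted with a different kit and in other pool sizes than the RNA of the 48 to 72 hpf eyes, so values are set against each other mainly within an age. A larval eye holds the neural retina, the pigment epithelium, the lens, the cornea and adhering tissue, and the labels give no restriction of the mutation to any of them. With a single library per genotype the 5 dpf difference has no replicate, and no p-value is given for the pair by itself.

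Srrm3 and its relative srrm4 are splicing factors of neurons. The eMIC domain (enhancer of microexons) is the part of these proteins that lets the splicing machinery include microexons, very short exons found mostly in neuronal transcripts. Rods and cones are the light-sensing neurons of the retina. In them light isomerizes the chromophore of an opsin, the opsin activates the G protein transducin, transducin relieves the inhibition of a cyclic GMP phosphodiesterase, and the fall in cyclic GMP closes cation channels in the membrane of the outer segment. Arrestins, opsin kinases, RGS9, recoverins and guanylate cyclases then shut the cascade off and restore cyclic GMP. Rods and cones mostly use separate gene copies of each of these parts, and zebrafish carry further copies from a duplication of the genome of bony fishes.

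The mutant 5 dpf library held 90039615 reads counted to genes and the WT 5 dpf library 72300388, within a range of 37724575 to 92560511 over the 11 libraries. Values are given in cRPKM, a count of reads scaled for transcript length and library size, for 29387 genes. At least 5 cRPKM were reached by 12162 genes in the mutant library and 10824 genes in the WT library. The 100 most abundant genes took 26.7% of the counts in the mutant and 34.3% in the WT. The mutation alters a domain, so the level of srrm3 itself does not check the labels. It stood at 3.30 cRPKM in mutant and 4.15 cRPKM in WT eyes at 5 dpf, a ratio of 0.795 with a 95% counting interval of 0.724 to 0.875. For srrm4 the values were 2.16 cRPKM in mutant and 2.61 cRPKM in WT eyes. Counting intervals here and below are exact binomial intervals of the ratio of reads, and they cover counting error only.

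Across the genes that reached 5 cRPKM in at least 1 of the 2 libraries, 976 of 12560 (7.77%) differed by at least 2-fold, measured as the log2 ratio of mutant over WT after adding 1 cRPKM to each value. Of these, 659 (5.25%) were higher and 317 (2.52%) were lower in the mutant. Ratios quoted for single genes are of cRPKM without the added 1, so a gene at a low level can have a ratio past 2 and still lie within 2-fold by the log2 ratio. As a yardstick without genotype, the 2 adult WT retina pools differed from each other by 2-fold at 1477 of 10586 genes (14.0%), and the SD of the log2 ratio over genes was 0.657 between mutant and WT at 5 dpf and 0.918 between the adult pools. The younger mutant and WT pairs differed at 0.676% of genes at 48 hpf, 1.59% at 60 hpf and 0.563% at 72 hpf. The share past 2-fold at 5 dpf thus lay above that of each younger pair and below that of the adult pools. The adult pools held unequal amounts of RNA of other tissues. Their median log2 ratio, pool 1 over pool 2, was 3.505 for cornea and skin genes and 1.97 for skeletal muscle genes. They are therefore an uneven yardstick, and what follows concerns which genes passed 2-fold at 5 dpf. The split depended on scaling: the median gene stood at 0.247 on the log2 scale, so 362 genes were higher and 488 lower (42.6% higher, against 67.5% as deposited) once the ratios were centred on it. Scaling by TMM, which weights down genes with extreme ratios, gave 322 higher and 548 lower (37.0% higher).

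**Figure D1:**
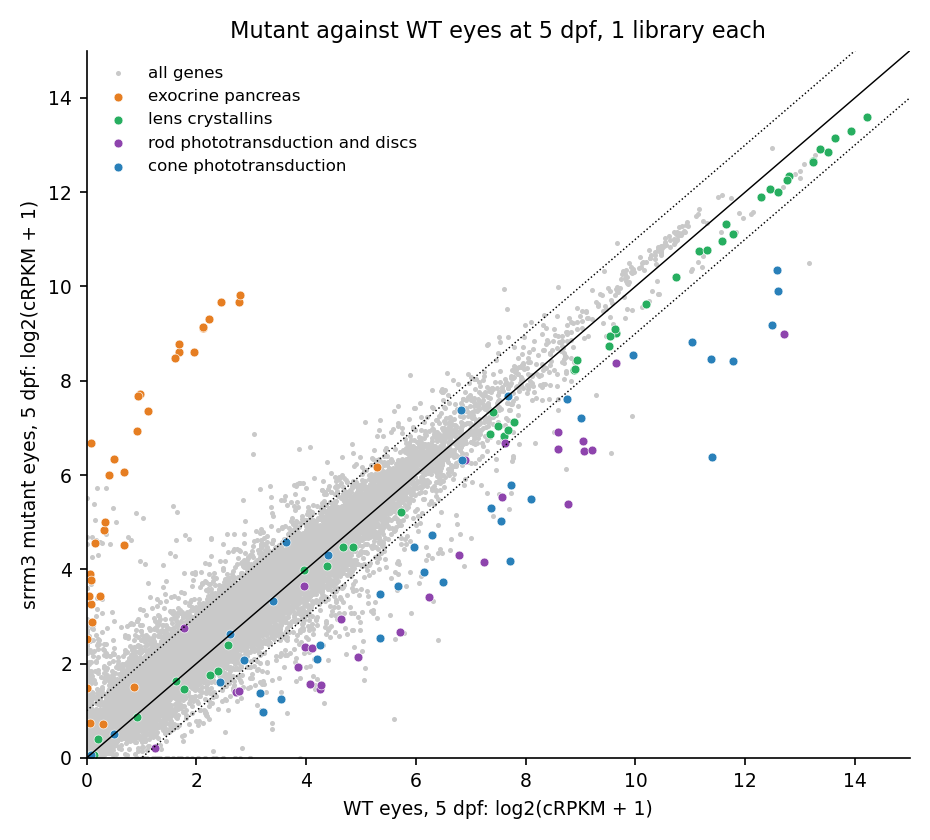
Level of each gene at 5 dpf, with the mutant library on the vertical axis and the WT library on the horizontal axis, both as log2(cRPKM + 1). Coloured points mark gene groups named in the legend and dotted lines mark 2-fold; most rod and cone genes lie below the diagonal and most exocrine pancreas genes far above it, while most genes lie along it.

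The visual pigments of the abundant cone classes were among the lowest genes of the mutant relative to WT. Of 6 cone opsins with at least 5 cRPKM, 4 were at least 2-fold lower and none was 2-fold higher. Summed over the list, cone opsin RNA amounted to 3857 cRPKM in mutant and 24635 cRPKM in WT eyes, or 0.524% of all counts in the mutant and 3.43% in the WT library. At 72 hpf the same sum had been 1960 cRPKM in mutant and 2087 cRPKM in WT eyes. In pooled eyes, fewer photoreceptors and less RNA per photoreceptor cannot be told apart.

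The ultraviolet cone opsin OPN1SW had 1444 cRPKM in mutant and 9133 cRPKM in WT eyes at 5 dpf (ratio 0.158, interval 0.157 to 0.159), after 553 cRPKM in mutant and 574 cRPKM in WT eyes at 72 hpf. For the red opsin opn1lw2 the ratio was 0.213, for the blue opsin opn1sw2 0.0969 and for the green opsin opn1mw1 0.101. At 72 hpf opn1lw2 had been at 850 cRPKM in mutant and 960.3 cRPKM in WT eyes, opn1sw2 at 253 cRPKM in mutant and 256 cRPKM in WT eyes, and opn1mw1 at 292 cRPKM in mutant and 286 cRPKM in WT eyes. At 60 hpf OPN1SW had 338 cRPKM in mutant and 526 cRPKM in WT eyes, and opn1lw2 501 cRPKM in mutant and 728 cRPKM in WT eyes. At that age opn1sw2 had 160 cRPKM in mutant and 211 cRPKM in WT eyes, and opn1mw1 150 and 251 cRPKM. These 4 opsins were thus lower in the mutant at 60 hpf, nearly matched at 72 hpf and 4.7 to 10.3-fold lower at 5 dpf. The remaining copies, whose levels in WT were far higher in the adult, did not share this. The green opsin opn1mw2 had 166 cRPKM in mutant and 112 cRPKM in WT eyes (ratio 1.48, interval 1.45 to 1.51), and the red opsin opn1lw1 had 22.7 cRPKM in mutant and 11.3 cRPKM in WT eyes (ratio 2.01, interval 1.85 to 2.18; log2 ratio 0.945). Both are abundant in the adult, where opn1mw2 had 2656 and 2090 cRPKM and opn1lw1 1420 and 1176 cRPKM. Further green opsins, opn1mw3 and opn1mw4, were below 1 cRPKM in both 5 dpf libraries. The green opsins are close copies of each other, as are the red ones, and the sources used here do not say how reads shared by copies were assigned.

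Transducin and the phosphodiesterase followed the abundant opsins. Of the 15 subunit genes with at least 5 cRPKM, 10 were at least 2-fold lower, none was 2-fold higher, and the median log2 ratio was −2.22. The lowest ratio of the list belonged to pde6ha, an inhibitory gamma subunit of the cone enzyme, with 82.8 cRPKM in mutant and 2679 cRPKM in WT eyes. It was also the lowest gene of the whole comparison by log2 ratio, after 25.2 cRPKM in mutant and 27.9 cRPKM in WT eyes at 72 hpf. Its relative PDE6H showed 4.84 cRPKM in mutant and 39.8 cRPKM in WT eyes, and the rod gamma subunit PDE6G 45.6 cRPKM in mutant and 190.03 cRPKM in WT eyes. The catalytic subunits differed less evenly. The pair of genes annotated PDE6B, the rod beta subunit, had ratios of 0.104 (PDE6B ENSDARG00000000380) and 0.113 (PDE6B ENSDARG00000011671), and the cone subunit PDE6C had a ratio of 0.288, with 148 cRPKM in mutant and 513 cRPKM in WT eyes. PDE6D, a lipid-binding carrier protein that was first found with the enzyme, was nearer to equal at a ratio of 0.628.

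The alpha subunits of transducin were at 40.9 cRPKM in mutant and 435 cRPKM in WT eyes for the rod gene GNAT1, and at 353 cRPKM in mutant and 2649 cRPKM in WT eyes for the cone gene GNAT2. At 72 hpf GNAT2 had stood at 135 cRPKM in mutant and 120 cRPKM in WT eyes. The beta and gamma subunits separated by copy. The beta subunit gnb3b had a ratio of 0.215 and its paralog GNB3 a ratio of 0.697, and the gamma subunit GNGT2 ENSDARG00000103543 had 952 cRPKM in mutant and 6207 cRPKM in WT eyes, while GNGT2 ENSDARG00000010680 had 203 cRPKM in mutant and 205 cRPKM in WT eyes. The rod-type beta subunit has copies gnb1a and gnb1b, which are also used outside photoreceptors, and these had ratios of 0.518 and 0.664.

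Among the channels and ion exchangers, 10 of 17 were at least 2-fold lower and none was 2-fold higher (median −1.25). The cyclic GMP-gated channel subunits were lowest: cngb3.2 of cones had 12.4 cRPKM in mutant and 89.6 cRPKM in WT eyes, and the rod subunit CNGA1 ENSDARG00000012125 had 1.94 cRPKM in mutant and 15.9 cRPKM in WT eyes. Of the 2 genes annotated CNGA3, the cone alpha subunit, one had a ratio of 0.229 (CNGA3 ENSDARG00000070726) and the other a ratio of 1.02 with an interval of 0.917 to 1.13 (CNGA3 ENSDARG00000012297). The sodium-calcium-potassium exchangers showed the same division. The copy slc24a2 had a ratio of 0.346, SLC24A1 of rods 0.294, and the copy SLC24A2 0.952. The inner segment potassium channel subunit KCNV2 had ratios of 0.386 and 0.473 in its 2 copies. Sodium pump subunits, which neurons in general use, ranged from a ratio of 0.330 for ATP1B2 ENSDARG00000034424 to 0.860 for ATP1B2 ENSDARG00000099203, with atp1a3a at 0.740 and atp1a3b at 0.636.

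Genes of shut-off and recovery were the most evenly low of the cascade, with 22 of 25 at least 2-fold lower, none 2-fold higher and a median of −2.01. Among the opsin kinases, grk1b had 16.96 cRPKM in mutant and 209 cRPKM in WT eyes, GRK1 of rods 4.78 cRPKM in mutant and 48.2 cRPKM in WT eyes, and the cone kinase GRK7 ENSDARG00000020602 44.2 cRPKM in mutant and 272 cRPKM in WT eyes. RGS9 ENSDARG00000037925, which speeds the return of transducin to its inactive state, had a ratio of 0.168, and the genes of its anchor, RGS9BP and rgs9bp, had ratios of 0.254 and 0.129. Of the 2 genes annotated GNB5, its beta subunit partner, GNB5 ENSDARG00000055377 had a ratio of 0.234 and GNB5 ENSDARG00000099685 a ratio of 0.942. The arrestins were graded. The rod-type arrestins sagb and saga had ratios of 0.156 and 0.172, while the cone arrestins ARR3 ENSDARG00000056511 and ARR3 ENSDARG00000098475 had ratios of 0.375 and 0.451. The recoverin gene rcvrna had a ratio of 0.197, and the other recoverins had ratios of 0.312 (RCVRN ENSDARG00000009637) and 0.411 (RCVRN ENSDARG00000019902). Of the guanylate cyclases, gucy2f, gc2 and gucy2d had ratios of 0.117, 0.200 and 0.327, and their activator GUCA1B had 1.75 cRPKM in mutant and 18.2 cRPKM in WT eyes. The 3 members not past 2-fold were RGS9 ENSDARG00000045156, GUCA1A ENSDARG00000100747 and GNB5 ENSDARG00000099685.

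**Figure D2:**
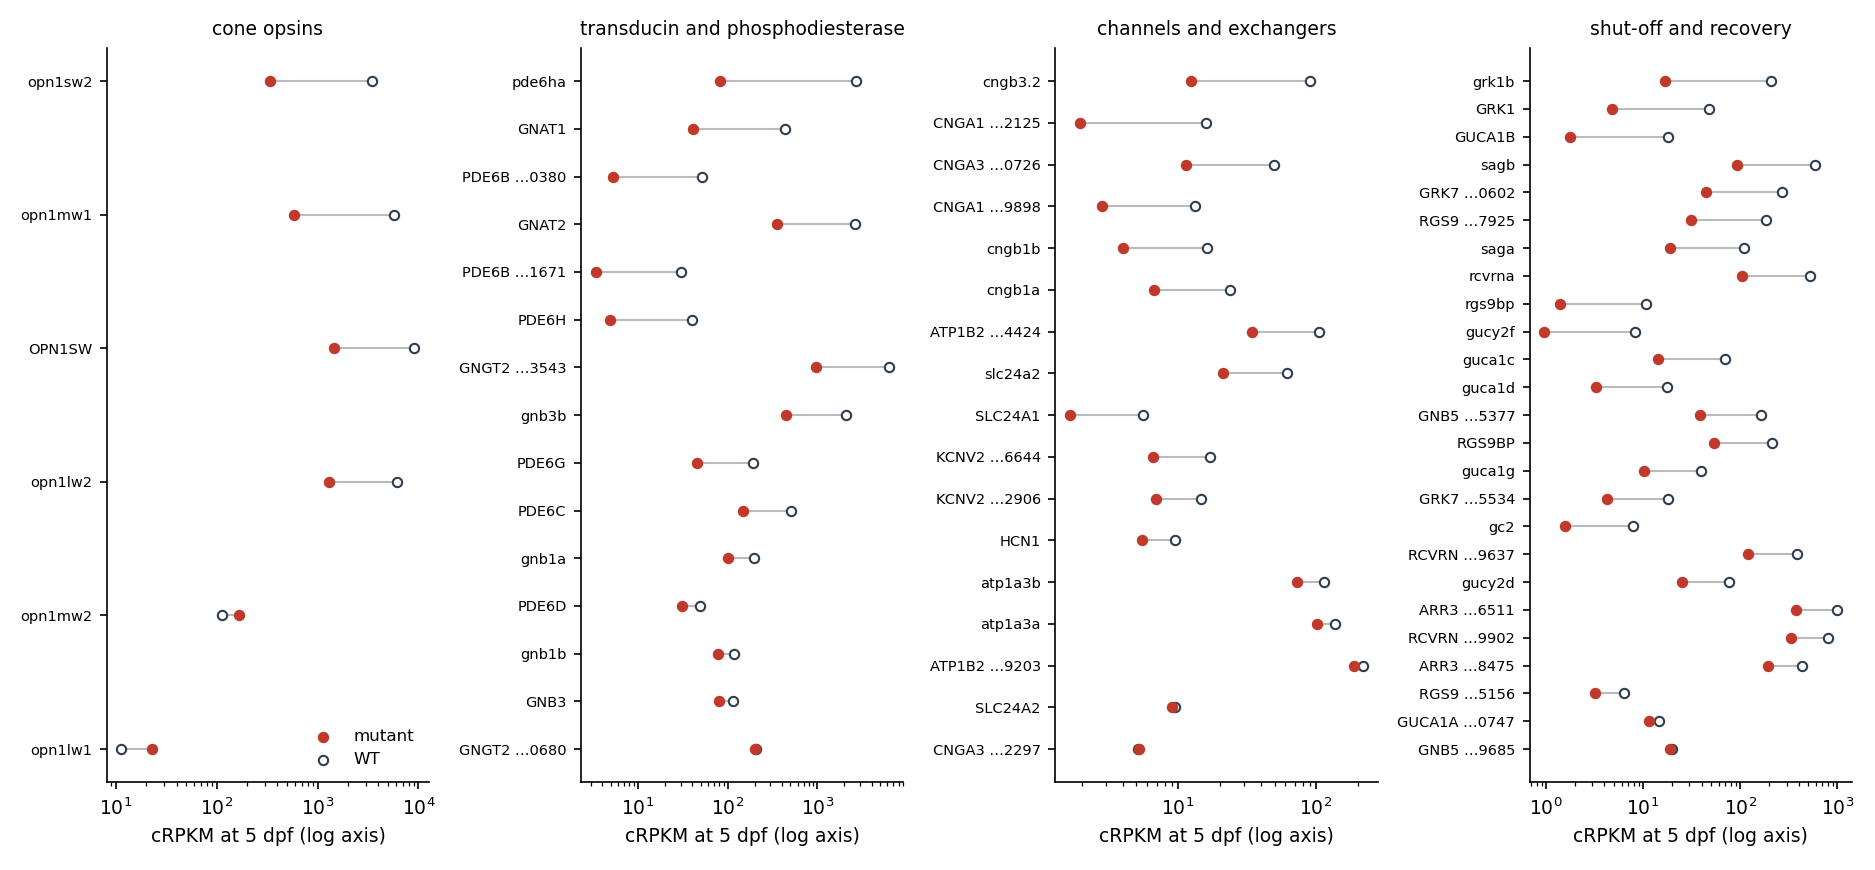
Level at 5 dpf of the cone opsins and the transducin, phosphodiesterase, channel and shut-off genes with at least 5 cRPKM in either library, in cRPKM on a log axis, by role in the cascade; 1 point is the mutant library and 1 the WT library. Most WT points lie to the right of the mutant points in every role, and the exceptions include opn1mw2, opn1lw1 and 1 copy of CNGA3. The points of 1 copy of GNGT2 and 1 of GNB5 nearly coincide.

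Counted by cell class, 23 of 27 rod genes (85.2%) and 27 of 35 cone genes (77.1%) were at least 2-fold lower in the mutant, and none was 2-fold higher. The medians of the log2 ratio were −2.035 for rods and −1.99 for cones. The median over all 19533 genes with at least 1 cRPKM was 0.247. In the rod list 27 of 28 members with at least 1 cRPKM were below 0, and in the cone list 33 of 36. As a spread for the same genes, the adult pools differed by −1.145 to 0.614 over rod genes and −1.79 to 0.46 over cone genes. The difference at 5 dpf was larger in size than that of each of the 3 younger pairs and of the adult pools for 26 of 27 rod genes. Of these, 25 were lower in the mutant and 1 was higher. The same held for 29 of 35 cone genes, 27 of them lower and 2 higher. Over all 12560 genes it held for 4487 (35.7%), of which 958 were lower and 3529 higher.

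Genes that build the outer segment were divided. Of 36 members, 17 were at least 2-fold lower and none was 2-fold higher (median −0.79). The lowest were CLUL1, a clusterin-like gene of photoreceptors, and the disc rim protein ROM1, with 16.8 cRPKM in mutant and 150 cRPKM in WT eyes. The genes for its partner peripherin, PRPH2 ENSDARG00000014840 and PRPH2 ENSDARG00000038018, had 90.6 and 92.8 cRPKM in mutant eyes, against 533 and 384 cRPKM in WT eyes. At the other end, impg2b ENSDARG00000100288 of the matrix between photoreceptors had 53.7 cRPKM in mutant and 28.9 cRPKM in WT eyes, and PROM1 ENSDARG00000034007, a protein of membrane protrusions, 121 cRPKM in mutant and 74.1 cRPKM in WT eyes. The rod-derived cone viability gene NXNL1 had 7.12 cRPKM in mutant and 45.2 cRPKM in WT eyes.

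Most genes of the machinery that carries proteins to the outer segment stayed within 2-fold. In the list of carriers and small GTPases 2 of 20 genes were at least 2-fold lower (10%, against 2.52% of all genes). The median was −0.03. The lower genes were unc119c with 2.20 cRPKM in mutant and 17.3 cRPKM in WT eyes, and arl3l2 with 19.4 cRPKM in mutant and 88.5 cRPKM in WT eyes. UNC119 proteins bind the lipid tail of transducin, and ARL3 releases such cargo. None of 20 intraflagellar transport genes, which serve cilia of all cell types, passed 2-fold in either direction, and their log2 ratios ran from −0.41 for TRAF3IP1 to 0.55 for IFT22. None of 23 genes of the BBSome and connecting cilium passed 2-fold either. The lowest of these were rpgrip1, a protein of the photoreceptor connecting cilium, at 5.13 cRPKM in mutant and 11.2 cRPKM in WT eyes, and BBS4 at 9.35 cRPKM in mutant and 18.7 cRPKM in WT eyes. The medians of the intraflagellar transport and BBSome lists, 0.18 and 0.04, lay below that of the median gene and turn negative when the ratios are centred on it.

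Most regulators of photoreceptor fate stayed within 2-fold. Of 27 such genes 1 was at least 2-fold lower (3.7%, against 2.52% of all genes) and 2 were higher (7.41%, against 5.25%). Of 31 with at least 1 cRPKM, 26 lay below the median of all genes (median −0.23, or −0.48 from all genes). The lower gene was foxq2, a regulator of blue cones, with 5.19 cRPKM in mutant and 16.5 cRPKM in WT eyes; six7, needed for green cones in zebrafish, followed at 36.5 cRPKM in mutant and 62.0 cRPKM in WT eyes. The higher genes were NR2F1 ENSDARG00000017168 and PRDM1, with 20.3 cRPKM in mutant and 8.52 cRPKM in WT eyes. PRDM1 is a repressor that in mice acts early in photoreceptor precursors. A few central regulators were read out for their role after their values had been seen. The general photoreceptor regulators crx and CRX had 175 and 115 cRPKM in mutant eyes, against 230 and 142 cRPKM in WT eyes. The rod regulators had 5.77 cRPKM in mutant and 9.95 cRPKM in WT eyes for nrl, and 33.2 cRPKM in mutant and 38.6 cRPKM in WT eyes for NR2E3. THRB, which directs red cones, had 11.3 cRPKM in mutant and 17.2 cRPKM in WT eyes. These genes were thus within 2-fold of WT where most of the opsins and cascade genes were several-fold lower.

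The synapse of photoreceptors, a ribbon that holds vesicles at the release site, stood between these groups. Of 36 genes 9 were at least 2-fold lower and none was 2-fold higher (median −0.56). The complexin cplx4c, which acts in vesicle release, had 1.74 cRPKM in mutant and 16.9 cRPKM in WT eyes. LRIT1 ENSDARG00000099406, in mice a membrane protein of the photoreceptor terminal, had 26.0 cRPKM in mutant and 111 cRPKM in WT eyes, and the active zone protein gene rims2b 9.77 cRPKM in mutant and 33.8 cRPKM in WT eyes. The calcium channel subunit cacna2d4b had 14.3 cRPKM in mutant and 36.3 cRPKM in WT eyes. RIMS1 (−0.04) and nsfb (0.57) were the highest of the list by log2 ratio. For 18 of the 36 genes the 5 dpf difference exceeded in size those of the younger pairs and the adult pools, all 18 of them lower in the mutant.

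**Figure D3:**
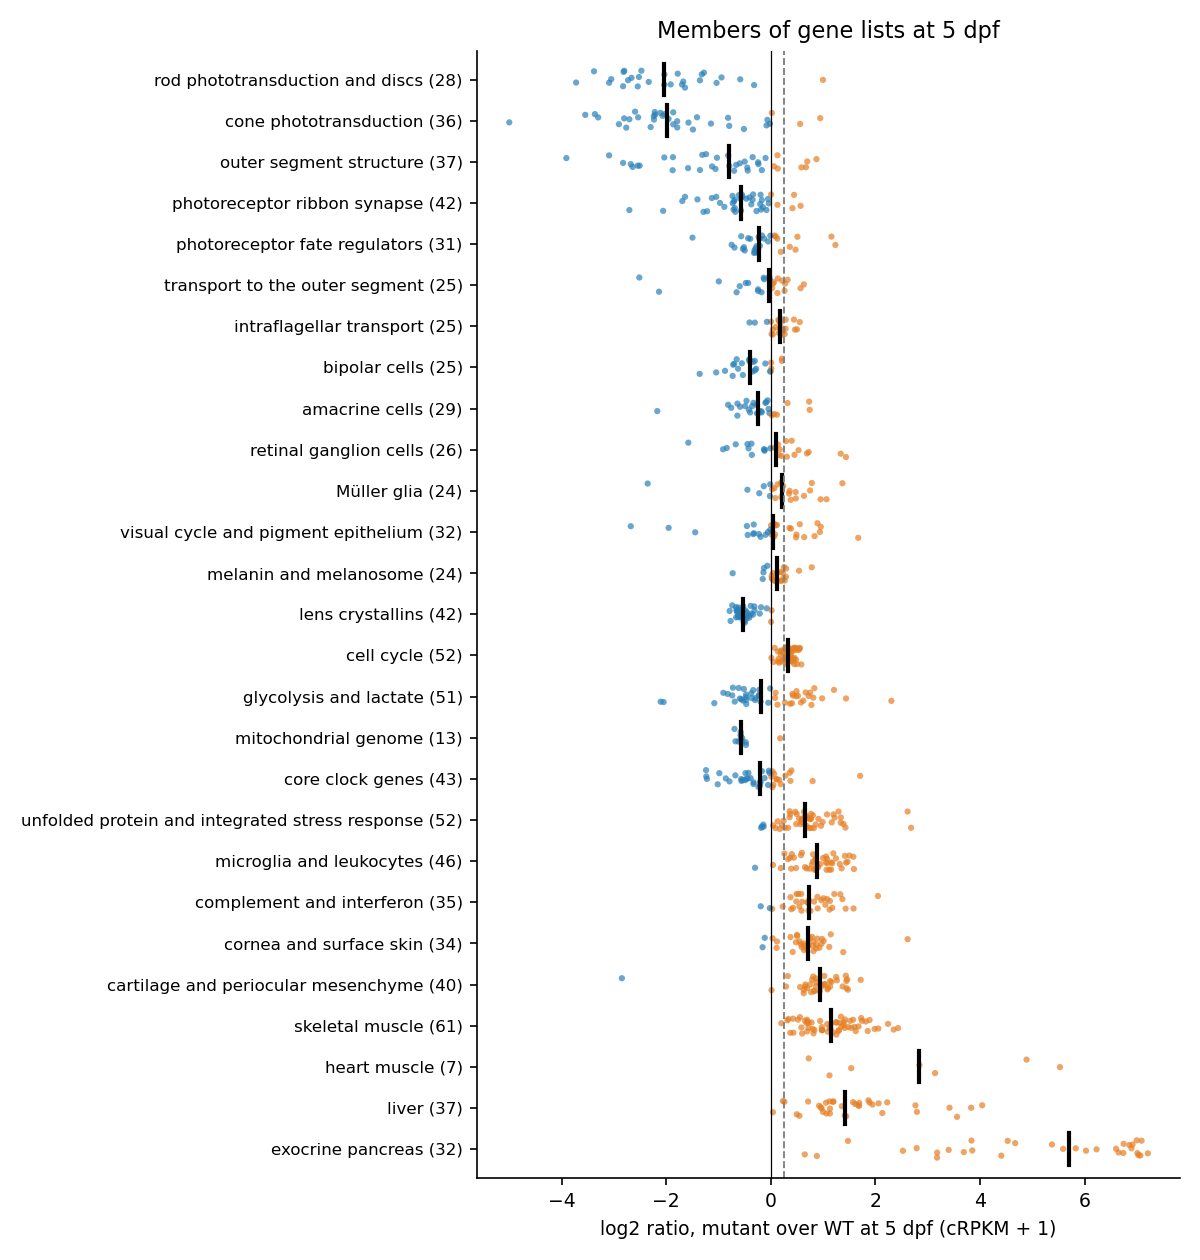
Log2 ratio of mutant over WT eyes at 5 dpf for the genes of each list, 1 point per gene with at least 1 cRPKM in either library, with a black bar at the median of the list and a dashed line at the median of all genes. Rod and cone lists are centred near −2, bipolar and amacrine lists between −0.5 and 0 and left of the dashed line, the intraflagellar transport list near 0, and tissue lists such as exocrine pancreas and heart muscle well above 0.

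At 48 and 72 hpf the rod and cone medians were near 0, and at 60 hpf both were below 0. Several members were under 1 cRPKM in both genotypes at 48 hpf, where the added 1 cRPKM holds the log2 ratio near 0. Examples are OPN1SW, with 0.17 cRPKM in mutant and 0.20 cRPKM in WT eyes, and PDE6C, with 0.26 and 0.25 cRPKM. The median log2 ratio of the rod list was −0.05 at 48 hpf, −0.32 at 60 hpf and 0.10 at 72 hpf, and −2.035 at 5 dpf. The cone list had −0.06, −0.37 and 0.05 at the same ages, and −1.99 at 5 dpf. From 72 hpf to 5 dpf, rod genes differed by a median log2 of 0.24 between the mutant libraries and 2.605 between the WT libraries. For cone genes the medians were 1.09 in the mutant and 3.15 in WT, and for ribbon synapse genes 0.67 in the mutant and 1.45 in WT. The 72 hpf and 5 dpf libraries come from different extractions, so only the contrast of the genotypes within each age is free of that step. Cone genes as a list were thus higher at 5 dpf than at 72 hpf in both genotypes, and rod genes hardly so in the mutant.

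**Figure D4:**
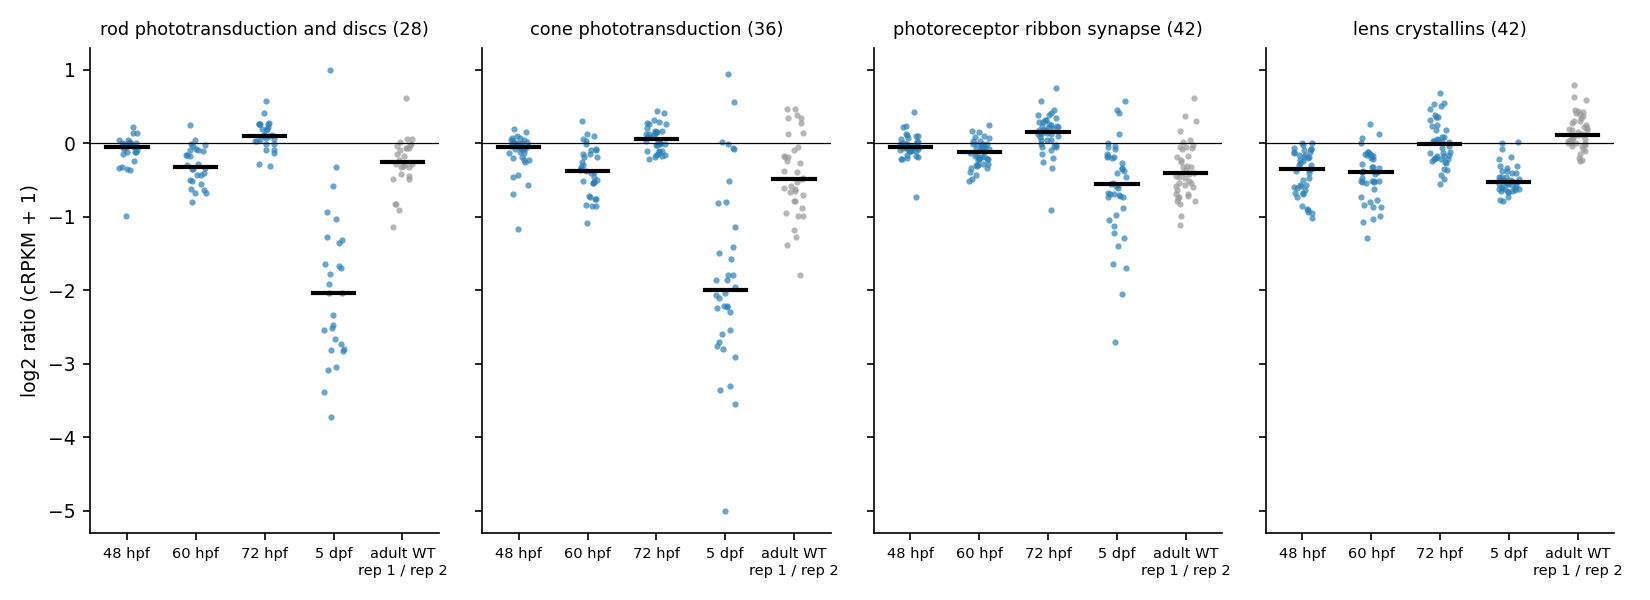
Log2 ratio of mutant over WT eyes for the members of the rod, cone, ribbon synapse and lens crystallin lists at 48, 60 and 72 hpf and at 5 dpf, with adult WT pool 1 over pool 2 in grey. Points are genes, not replicates, and bars are medians. Rod and cone medians lie near 0 at 48 and 72 hpf, below 0 at 60 hpf and near −2 at 5 dpf.

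Over all genes, those lower in the mutant were largely genes with higher levels in adult WT retinae than in WT eyes at 72 hpf. Genes with at least 5 cRPKM in either 5 dpf library were sorted by the adult WT retinae against the WT eyes at 72 hpf. The sorting libraries do not belong to the 5 dpf pair, but the filter before it does use that pair. A gene could pass the filter through the 5 dpf library in which it was higher. Of 1424 genes at least 2-fold higher in both adult pools, 248 (17.4%) were at least 2-fold lower in the mutant at 5 dpf and 24 (1.69%) were higher, with a median log2 ratio of −0.36. Of 3037 genes at least 2-fold lower in both adult pools, 14 (0.461%) were lower in the mutant and 259 (8.53%) were higher, with a median of 0.43. Among the other 8099 genes 55 (0.679%) were lower and 376 (4.64%) were higher, with a median of 0.20. The genes higher in both adult pools made up 78.2% of all genes that were lower in the mutant. Of the 317 lower genes, 272 had at least 5 cRPKM in both adult retinae and 12 were below 1 cRPKM in both. Of the 659 higher genes, 106 had at least 5 cRPKM in both adult retinae and 211 were below 1 cRPKM in both. Over all 12560 genes, 8007 had at least 5 cRPKM in both adult retinae. The number of all genes below 1 cRPKM in both was not counted, so those counts have no such share beside them. Adult pools were labelled as retinae and held little lens RNA. Crystallin genes summed to 37.8 and 25.4 cRPKM there, against 57239.68 cRPKM in WT eyes at 72 hpf. Adult pool 1 did hold skin RNA: cornea and skin genes summed to 14511.83 cRPKM, against 971.85 cRPKM in pool 2. A gene can thus be higher or lower in the adult pools because other tissue was taken, and age and tissue cannot be told apart here.

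Read by age within a genotype, 291 of the 317 lower genes stood 2-fold or more above the 72 hpf level in WT at 5 dpf. In the mutant 117 of them stood 2-fold or more above the 72 hpf level at 5 dpf, 192 were within 2-fold and 8 were lower. Of the 659 higher genes, 345 stood 2-fold or more above the 72 hpf level in the mutant at 5 dpf, and 200 were at least 2-fold lower in WT at 5 dpf than in WT at 72 hpf. These counts reuse the libraries that chose the genes. The same counts were not made over all genes, so they cannot be set apart from the general difference between the ages. They are given as a description.

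**Figure D5:**
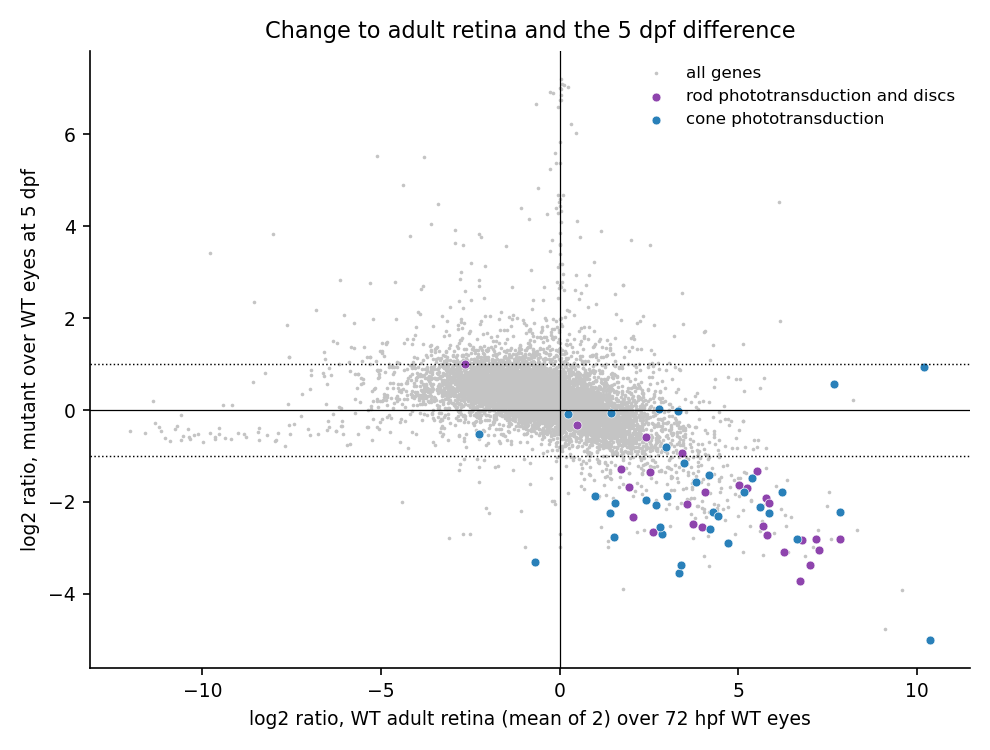
Log2 ratio of mutant over WT eyes at 5 dpf (vertical) against the log2 ratio of the adult WT retinae over WT eyes at 72 hpf (horizontal), 1 point per gene, with dotted lines at 2-fold. Most rod and cone genes lie at the lower right, higher in the adult and lower in the mutant, and opn1mw2 and opn1lw1 lie at the upper right.

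Most genes of other retinal neurons stayed within 2-fold, but as lists bipolar and amacrine genes lay below the median gene. Bipolar cells, which receive the photoreceptor signal, had 2 of 22 genes at least 2-fold lower (9.09%, against 2.52% of all genes). All 25 with at least 1 cRPKM lay below the median of all genes (median −0.40, or −0.65 from all genes). The lower genes were RGS11, at 7.64 cRPKM in mutant and 21.2 cRPKM in WT eyes, and LRIT3 ENSDARG00000055463, at 11.4 cRPKM in mutant and 24.5 cRPKM in WT eyes. RGS11 acts in the dendrites of ON bipolar cells, opposite the photoreceptor ribbon, and LRIT3 is needed in mice to place the signalling complex there. None of 25 amacrine genes with at least 5 cRPKM passed 2-fold, though 26 of 29 with at least 1 cRPKM lay below the median of all genes (median −0.24, or −0.48 from all genes), nor did any of the 3 horizontal cell genes. Among 22 ganglion cell genes 2 were higher (9.09%, against 5.25% of all genes) and 1 was lower (4.55%, against 2.52%). The higher ones, SLC17A6 ENSDARG00000001127 and EOMES ENSDARG00000006640, were between 0 and 1.34 cRPKM in the adult retinae and are also expressed in the brain, and the lower one was the neurofilament gene nefmb. Of 32 genes used by neurons in general 1 was lower (3.12%, against 2.52% of all genes). This was dlg4b, a scaffold of synapses, with 6.94 cRPKM in mutant and 17.3 cRPKM in WT eyes. SNAP25 ENSDARG00000058117, a vesicle fusion protein, had a log2 ratio of −0.99. The sign of the ganglion and horizontal cell medians, 0.10 and 0.09, turns when the ratios are centred.

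Lists of glia and of the growth zone differed in direction. Among 20 genes of Müller glia, the supporting glia of the retina, 2 were higher (10%, against 5.25% of all genes). In the other direction 1 was lower (5%, against 2.52%), and the median was 0.22, below 0 when centred. The lower gene was the glutamate transporter SLC1A2 ENSDARG00000052138, with 12 cRPKM in mutant and 65.5 cRPKM in WT eyes. The higher genes were SLC1A3 ENSDARG00000043148, which was at 0.05 cRPKM or less in the adult retinae, and the lipoprotein gene apoeb, with 675 cRPKM in mutant and 322 cRPKM in WT eyes. The retinoid binding gene rlbp1a of these cells had 119 cRPKM in mutant and 130 cRPKM in WT eyes. A list of glial reaction and regeneration genes had 4 of 15 higher (26.7%) and none lower, and 20 of 21 with at least 1 cRPKM above 0 (median 0.58), led by SOX11 ENSDARG00000095743 with 174 cRPKM in mutant and 50.3 cRPKM in WT eyes. Progenitor genes had 20 of 24 below the median of all genes (median −0.07) and 1 of 22 at least 2-fold lower (4.55%, against 2.52%). The lower gene was rx2, a homeobox gene of the stem cell zone and of photoreceptors, with 13.7 cRPKM in mutant and 34.3 cRPKM in WT eyes. None of 45 cell cycle genes passed 2-fold, and their median, 0.32, was near that of all genes.

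The pigment epithelium recycles the chromophore of the opsins. Genes of it that were named after their values were seen had similar levels, while the log2 ratios of its list ran from −2.68 to 1.67. RPE65 ENSDARG00000007480, the isomerase of this cycle, had 260 cRPKM in mutant and 239 cRPKM in WT eyes, and rlbp1b, its retinaldehyde binding partner, 247 cRPKM in mutant and 237 cRPKM in WT eyes. The 3 of 26 visual cycle genes that were at least 2-fold lower included members made by photoreceptors: rbp3, the retinoid carrier that rods and cones secrete, had 152 cRPKM in mutant and 979 cRPKM in WT eyes, and RDH8 ENSDARG00000105060, an outer segment retinol dehydrogenase, 14.4 cRPKM in mutant and 58.5 cRPKM in WT eyes. None of 16 melanin genes passed 2-fold. The medians of both lists, 0.04 and 0.12, turn negative when centred.

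Lens crystallins, the structural proteins of lens fibres, were slightly and evenly lower. Of 42 genes with at least 1 cRPKM 40 had a log2 ratio below 0, yet none of the 37 with at least 5 cRPKM passed 2-fold (median −0.52). Together they took 7.23% of counts in the mutant and 10.7% in the WT. CRYBB1, the most abundant by difference, had 12361 cRPKM in mutant and 19102 cRPKM in WT eyes. The median of this list was also negative at 48 hpf (−0.36) and 60 hpf (−0.39), and −0.01 at 72 hpf. None of 21 lens fibre structure genes passed 2-fold (median −0.33). Lens was thus a smaller share of the RNA in the mutant library, and its part in the other ratios was not tested.

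Energy metabolism differed at a few genes. In glycolysis and lactate 3 of 44 genes were lower (6.82%, against 2.52% of all genes) and 2 higher (4.55%, against 5.25%). The median was −0.20. ENO1 ENSDARG00000013750, an enolase, had 48.2 cRPKM in mutant and 211 cRPKM in WT eyes, and the glucose transporter SLC2A1 ENSDARG00000001437 17.97 cRPKM in mutant and 77.5 cRPKM in WT eyes. PKLR, the pyruvate kinase of liver and red cells, was higher in the mutant at 12.54 cRPKM, against 1.74 cRPKM in WT. The mitochondrial creatine kinases CKMT2 ENSDARG00000069615 and CKMT2 ENSDARG00000039929 had 206 and 67.9 cRPKM in mutant eyes, against 622 and 175 cRPKM in WT eyes. The first was already lower in the mutant at 48, 60 and 72 hpf, with log2 ratios of −1.46, −1.49 and −0.67. The second had 0.655, 0.679 and −0.19 at these ages. The muscle creatine kinase ckma was higher at 5 dpf with 440 cRPKM in mutant and 157 cRPKM in WT eyes. Its log2 ratios at the younger ages were 1.02, 1.75 and −0.23. In the tricarboxylic acid cycle list 1 of 31 genes was at least 2-fold lower (3.23%) and 2 were higher (6.45%), near the shares of all genes. Of 34 members with at least 1 cRPKM 25 were above 0 (median 0.14, or −0.10 from all genes). The lower gene was the pyruvate dehydrogenase subunit pdha1b, with 5.78 cRPKM in mutant and 25.2 cRPKM in WT eyes. The genes of the mitochondrial genome did not pass 2-fold, but 12 of 13 were below 0 (median −0.57). Nuclear genes of oxidative phosphorylation had 1 of 87 higher and none lower (median −0.11), and 79 cytosolic ribosomal protein genes had none past 2-fold (median 0.34).

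Opsins outside rods and cones were mostly lower. Of 11 such genes with at least 5 cRPKM 3 (27.3%) were at least 2-fold lower and none higher, and 18 of 20 with at least 1 cRPKM were below 0 (median −0.35). The lowest was opn6b, with 4.10 cRPKM in mutant and 28.2 cRPKM in WT eyes, and the melanopsin OPN4 ENSDARG00000007553 had 16.6 cRPKM in mutant and 49.4 cRPKM in WT eyes. Of 43 clock genes 37 lay below the median of all genes (median −0.20), and 4 of 39 were at least 2-fold lower, among them the nuclear receptor rorca at 36.1 cRPKM in mutant and 86.5 cRPKM in WT eyes and the cryptochrome cry3b at 5.97 cRPKM in mutant and 15.4 cRPKM in WT eyes. The gene aanat2 was higher: this enzyme of melatonin synthesis in photoreceptors and pineal gland had 41.9 cRPKM in mutant and 12.1 cRPKM in WT eyes. The sources used here do not give the hour at which the eyes were taken.

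Some stress lists held genes that were higher in the mutant. In the unfolded protein and integrated stress responses 11 of 47 genes were higher by at least 2-fold (23.4%, against 5.25% of all genes) and none lower (median 0.66). The transcription factor atf5a had 92.9 cRPKM in mutant and 13.6 cRPKM in WT eyes, after 23.5 cRPKM in mutant and 25.2 cRPKM in WT eyes at 72 hpf. ATF3, a factor induced by several stresses, had 43.1 cRPKM in mutant and 6.2 cRPKM in WT eyes, and DDIT3, which acts in the death response to unfolded proteins, 50.2 cRPKM in mutant and 18.5 cRPKM in WT eyes. XBP1 and the chaperone HSPA5 had 259 and 121 cRPKM in mutant eyes, against 102 and 70.6 cRPKM in WT eyes. Secretory tissues such as the pancreas also express these 2 strongly. In the p53 and apoptosis list 3 of 41 genes (7.32%, near the share of all genes) were higher and none lower (median 0.41, or 0.16 above all genes), including bbc3, a trigger of apoptosis, at 6.18 cRPKM in mutant and 2.35 cRPKM in WT eyes. Heat shock and oxidative stress had 5 of 45 higher (11.1%, against 5.25% of all genes), with a median of 0.43. The list was led by gstp1.1 at 23.7 cRPKM in mutant and 2.08 cRPKM in WT eyes. Immediate early genes had 4 of 23 higher (17.4%, against 5.25% of all genes) and 1 lower (4.35%, against 2.52%). JUN had 162 cRPKM in mutant and 47.2 cRPKM in WT eyes. NPAS4 ENSDARG00000055752, which neurons induce with activity, had 7.14 cRPKM in mutant and 22.1 cRPKM in WT eyes.

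Immune cell genes were higher in the mutant library by about as much as the adult WT pools differed among themselves. Of 23 microglia and leukocyte genes 15 were higher by at least 2-fold and none lower (median 0.88), while the adult pools differed by a median of 1.15 over the same list. For 8 of the 23 (34.8%, against 35.7% of all genes) the 5 dpf difference exceeded those of the younger pairs and the adult pools. Among the members was ccl34b.1, a chemokine of macrophages and microglia, at 65.0 cRPKM in mutant and 20.9 cRPKM in WT eyes. The sum of the list was 1072 cRPKM in mutant and 513 cRPKM in WT eyes. The receptor P2RY12 of resident microglia was at 1.45 cRPKM in mutant and 0.32 cRPKM in WT eyes, under the level at which genes were counted. Of 16 complement and interferon genes 8 were higher and none lower (median 0.73, and 0.805 between the adult pools). The same mutant library was rich in genes of tissues outside the eye, some of which hold macrophages or make complement, and the part of these tissues in the immune and stress values was not tested.

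RNA of organs that are not part of an eye was plain in the mutant library. Of 29 exocrine pancreas genes 28 were higher by at least 2-fold, with a median of 5.71, and the digestive enzyme genes of this list reached 901 cRPKM (prss59.2) where WT had 5.91 cRPKM. The list summed to 7094 cRPKM in mutant and 82.3 cRPKM in WT eyes, or 0.568% of counts in the mutant and 0.00648% in the WT library. The insulin gene ins had 40.9 cRPKM in mutant eyes, against 0.10 cRPKM from 3 reads in WT eyes (ratio 408.8, interval 147 to 2085). At 48 hpf ins had 17.3 cRPKM in mutant and 26.7 cRPKM in WT eyes, and at 72 hpf 0 and 0.24 cRPKM. The enzyme genes ctrb.1 and ela2l were at 0 cRPKM in both genotypes at 72 hpf, and prss59.2 at 0.10 and 0 cRPKM. The exocrine list summed to 807 cRPKM in mutant and 1019 cRPKM in WT eyes at 72 hpf. Most of that was the member tcnbb, with 797 and 1006 cRPKM. For these 3 enzyme genes the 5 dpf mutant library was thus the high one. Of 8 endocrine pancreas genes 3 were higher by at least 2-fold and none lower, and 4 of 10 with at least 1 cRPKM were below 0. That list summed to 273 cRPKM in mutant and 226 cRPKM in WT eyes at 5 dpf. Heart muscle genes showed 4 of 5 higher: MYL7, a myosin light chain of heart muscle, had 51.6 cRPKM in mutant and 0.14 cRPKM in WT eyes. MYL7 was also found in younger libraries of both genotypes, with 50.9 cRPKM in mutant and 77.2 cRPKM in WT at 48 hpf, 43.5 cRPKM in mutant and 9.53 cRPKM in WT eyes at 60 hpf, and 18.1 cRPKM in mutant and 35.4 cRPKM in WT eyes at 72 hpf. The WT library at 5 dpf was therefore the only larval eye library with less than 1 cRPKM of this gene.

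Tissues that can stay attached to an eye were also higher. Of 50 skeletal muscle genes 34 were higher by at least 2-fold and none lower (median 1.15). The same list had medians of 0.72 at 48 hpf, 0.69 at 60 hpf and −0.16 at 72 hpf and of 1.97 between the adult pools, and 8 of the 50 (16.0%) exceeded those pairs at 5 dpf. The list gave sums of 11327 cRPKM in mutant and 4381 cRPKM in WT eyes. The parvalbumin pvalb2 of fast muscle had 985 cRPKM in mutant and 193 cRPKM in WT eyes. Cartilage and periocular mesenchyme had 16 of 36 higher and 1 lower (median 0.94). Type II collagen (COL2A1 ENSDARG00000069093) had 434 cRPKM in mutant and 155 cRPKM in WT eyes, whereas KERA, a proteoglycan of the cornea stroma, was the lower gene at 7.38 cRPKM in mutant and 59.3 cRPKM in WT eyes. Cornea and skin genes had 5 of 31 higher (median 0.70), liver genes 11 of 14 higher (median 1.41), and intestine genes 2 of 8 higher. The liver gene apoa1b had 117 cRPKM in mutant and 7.27 cRPKM in WT eyes at 5 dpf, after 385 cRPKM in mutant and 404 cRPKM in WT eyes at 72 hpf. None of 7 blood genes passed 2-fold. Hox genes of groups 4 to 13, used here as markers of trunk tissue, summed to 15 cRPKM in mutant and 1.79 cRPKM in WT eyes at 5 dpf. At 72 hpf the sum had been 23.4 cRPKM in mutant and 34.1 cRPKM in WT eyes. These sums rest on low values, since 4 of the 37 genes reached 1 cRPKM at 5 dpf and none reached 5 cRPKM. Liver genes summed to 1609 cRPKM in mutant and 633 cRPKM in WT eyes at 5 dpf, after 2476 cRPKM in mutant and 3018 cRPKM in WT eyes at 72 hpf. For heart, liver and Hox genes the WT library at 5 dpf was thus the low one, and the younger libraries of both genotypes held such RNA. Genes of brain regions had 2 of 13 higher, oxt of the hypothalamus and TBR1 of the telencephalon.

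The part of these tissues in the ratios of other genes was not tested. Genes outside the 53 lists also reached large ratios. The highest included scpp9 (held only by a list made after its values were seen), of the secretory calcium-binding phosphoproteins of tooth and bone, with 24.7 cRPKM in mutant eyes and no read in WT eyes, at least 499.7-fold higher against a floor of 3 reads, and the apolipoprotein APOD ENSDARG00000060350, with 38.6 cRPKM in mutant and 0.39 cRPKM in WT eyes. The lowest included TENT5A, a poly(A) polymerase family gene, the glutamate transporter slc1a8b with 2.72 cRPKM in mutant and 32.8 cRPKM in WT eyes, and GNG11, a G protein gamma subunit gene, with 87.2 cRPKM in mutant and 750 cRPKM in WT eyes. The kinases camk1ga and camkk1b of calcium signalling had 9.08 and 3.83 cRPKM in mutant eyes, against 78.1 and 31.2 cRPKM in WT eyes. All 5 had more than 25 cRPKM in each adult retina.

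The spread of the genotype difference could be estimated only from the 3 younger pairs, and the 5 dpf ratio was tested against them with edgeR's quasi-likelihood test on counts (Benjamini-Hochberg adjusted p, 2 residual degrees of freedom). Of 22476 genes tested, the ratio at 5 dpf was above the younger pairs for 500 (2.22%) and below for 682 (3.03%) at an adjusted p of 0.05. Of the genes past 2-fold, 251 of the 659 higher and 259 of the 317 lower ones passed this test. These genes were picked by the same 5 dpf ratio that enters the test, so the overlap is a description only. The shares of the 2 directions also rest on different scalings, cRPKM as deposited for the 2-fold counts and TMM for the test. The test is of the ratio, not of a change in level with age. Among the lists, the ratio was below the younger pairs for 24 of 28 rod genes and 27 of 37 cone genes, and above for none. It was below for 22 of 26 shut-off genes, 12 of 15 transducin and phosphodiesterase genes and 13 of 19 channels and exchangers. The same held for 15 of 38 genes of outer segment structure and 14 of 43 of the ribbon synapse. Smaller shares lay below, and none above, in the BBSome and connecting cilium (6 of 37) and transport to the outer segment (5 of 25). This was also so for bipolar cells (6 of 26), amacrine cells (3 of 30) and non-visual opsins (5 of 24). Of the fate regulators 4 of 31 lay below and 1 above. Of the intraflagellar transport genes none of 26 passed in either direction, and of lens crystallins none of 44.

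Within the tested lists the lowest p among photoreceptor genes belonged to PDE6B ENSDARG00000011671 (edgeR adjusted p = 5.1e-06), followed by PDE6B ENSDARG00000000380 (7.5e-06), CLUL1 (9.2e-06), GNAT1 (1.2e-05), opn1sw2 (1.4e-05) and GRK1 (2.1e-05). The cone subunit PDE6C (0.17) and 1 cone arrestin (ARR3 ENSDARG00000098475, 0.16) did not pass. Elsewhere, the ratio was below for 7 of 13 mitochondrial genome, 14 of 52 glycolysis and 12 of 44 clock genes. Genes with a ratio above the younger pairs included 21 of 33 exocrine pancreas, 19 of 52 liver and 10 of 43 cartilage genes. They also included 9 of 59 microglia and leukocyte, 8 of 53 stress response and 5 of 61 skeletal muscle genes. The heart list had none of 7; the log2 ratio of MYL7 was −0.59, 2.08 and −0.93 in the younger pairs. The test has limits: the 5 dpf pair adds no residual of its own, so it is assumed to vary as the younger pairs do, and when the 2 adult pools and the head library were added to the edgeR fit, 0 genes passed in either direction (1146 had an unadjusted p under 0.05, and on the 8 larval eye libraries limma called 848 above and 332 below and DESeq2 352 and 664). Leaving out the 60 hpf pair gave 1854 genes above and 1992 below, and leaving out the 48 hpf pair gave 324 and 425.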

How the data were processed

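RNA of pooled zebrafish eyes was sequenced as poly(A)-selected, stranded libraries, per the labels' protocols. The authors deposited, for each gene and library, a cRPKM value (an RPKM whose length correction the sources used here do not define) and a read count. The submitters' processing notes name the build danRer10; the sources used here do not give the aligner, the counter or whether counting used the strand, so reads of antisense partners and of close paralogs may be shared. Of 31848 genes listed, 2461 had no value; 25682 of the rest carried a symbol (87.4%), and where genes share a symbol the Ensembl identifier follows it.

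From these values the log2 ratio of mutant over WT was computed with a pseudocount of 1 cRPKM. A gene counted as higher or lower at 2-fold or more where the higher library had at least 5 cRPKM, and medians of lists used members with at least 1 cRPKM in either library. Ratios of read counts carry exact binomial 95% intervals, and a count of 0 was set to a floor of 3 reads. The 5 dpf ratio was set against the younger pairs with edgeR 4.0.16 (TMM, filterByExpr, robust quasi-likelihood test, Benjamini-Hochberg threshold 0.05, terms for stage, genotype and genotype by 5 dpf) on 8 libraries, with DESeq2 1.42.0 and limma 3.58.1 as alternatives. Tested on simulated data for this comparison (21843 genes, with an assumed dispersion of 0.01 that real libraries may exceed), the fit recovered 33 of 50 genes changed 2-fold and all 50 changed 4-fold, with 7 false calls. No replicates exist within a genotype and age; the adult pools are separate samples whose origin in separate fish is not stated.

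Members and the 53 gene lists were chosen with earlier results of these data known. Genes named are the 10 highest and 10 lowest log2 ratios (at least 5 cRPKM and 30 reads) over all genes and outside the lists, the 10 largest differences in cRPKM each way, all phototransduction genes with at least 5 cRPKM, the 2 highest and 2 lowest of each other list, the 10 lowest p each way, and srrm3 and srrm4, except a few items that are not reported here; others were named after their values were seen, among them crx, CRX, nrl, NR2E3, THRB, PRPH2, NXNL1, rims2b, cacna2d4b, rlbp1a, rlbp1b, RPE65, P2RY12, XBP1, DDIT3 and HSPA5.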

Additional observations from a re-analysis of the deposited data

Results flagged for a closer look

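The mutant over WT ratio at 5 dpf differed from that of the 48, 60 and 72 hpf pairs, by the fitted term for genotype at 5 dpf (edgeR quasi-likelihood test, Benjamini-Hochberg adjusted), for 500 genes above and 682 genes below. The 10 lowest p-values above the younger pairs were mostly pancreatic enzyme genes. Their log2 differences were 7.17 for CPA1 ENSDARG00000021339, 6.93 for prss1, 9.30 for CELA1 ENSDARG00000017314, 6.23 for CPB1, 7.38 for ela2, 9.91 for prss59.2, 8.79 for CEL ENSDARG00000017490 and 9.16 for ctrb.1. The others were the apolipoprotein APOD ENSDARG00000060350 with 6.41 and ENSDARG00000098957, which carries no symbol, with 6.47. Standard errors in this direction ran from 0.289 to 0.593.

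Below the younger pairs, photoreceptor genes made up most of the genes reported from the lowest p-values. Their log2 differences were −3.53 for PDE6B ENSDARG00000011671, −3.52 for PDE6B ENSDARG00000000380, −5.01 for CLUL1, −3.395 for GNAT1, −3.36 for opn1sw2 and −3.34 for GRK1. The other genes reported were KERA of the cornea stroma with −3.60, GNG11 with −2.89 and TENT5A with −3.91. GNG11 and TENT5A were in no list, so their cell class was not assigned. GNG11 had 5474 and 4919 cRPKM in the adult retinae, where GNAT1 had 5218 and 5579 cRPKM. Standard errors of the genes given in this direction ran from 0.226 to 0.367.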

How the results depend on the processing

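Counts of genes past 2-fold at 5 dpf moved with scaling and filters, and the direction of the rod and cone medians did not under any setting tried. Against 659 genes higher, there were 290 with a pseudocount of 5 cRPKM, 362 centred on the median gene, 322 with TMM, 1067 with a floor of 1 cRPKM or no filter, 268 with a floor of 20 cRPKM and 106 among genes with at least 5 cRPKM in both adult retinae, a set added after seeing the data. Against 317 lower, there were 488 centred, 548 with TMM and 180 with the floor of 20 cRPKM. The share that was higher ran from 28.0% (adult set) to 73.2% (floor of 1 cRPKM). The rod list median at 5 dpf, −2.035, was −2.28 with a pseudocount of 0.1, −1.70 with a pseudocount of 5, −2.28 centred, −2.345 with TMM and −2.47 with the floor of 20 cRPKM; the cone list median at 5 dpf was −1.50 with a pseudocount of 5. The test against the younger pairs gave 0 genes above and 0 below with all 11 libraries, 848 above and 332 below with limma on log2(cRPKM + 1), and, leaving out 1 younger pair in turn, 324 to 1854 above and 425 to 1992 below. DESeq2 left 8203 genes without an adjusted p. Rod genes called numbered 22 to 25 of 28 in all these fits except that with 11 libraries, which called none; of the 20 genes with the lowest p in the test, ctrb.1 alone was lost without the 60 hpf pair and by DESeq2, and all 20 were lost with 11 libraries. The cause of these shifts was not tested. Age is a term of this fit, so each mutant library is set against the WT library of its age. Counting error is small at these depths, and the single library per genotype limits the comparison.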

Other observations

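Further gene groups were read out after their values had been seen and are given as a description. Of 15 genes known to respond to glucocorticoids 8 were higher by at least 2-fold in the mutant at 5 dpf and none lower (median log2 ratio 1.07). FKBP5, a co-chaperone of the glucocorticoid receptor, had 60.4 cRPKM in mutant and 16.7 cRPKM in WT eyes, and the transcription factor KLF9 54.5 cRPKM in mutant and 12.7 cRPKM in WT eyes. In sterol synthesis 3 of 17 genes were at least 2-fold lower (17.6%, against 2.52% of all genes) and none higher. As a list these genes did not go down. Of 28 members with at least 1 cRPKM, 19 were above 0 and 9 below (median 0.18, or −0.07 from all genes). The lower genes included the synthase HMGCS1, with 15.8 cRPKM in mutant and 33.0 cRPKM in WT eyes. Another was the squalene synthase FDFT1, with 4.51 cRPKM in mutant and 14.1 cRPKM in WT eyes.

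Further tissues, among them forebrain, inner ear, pituitary and fin fold, also had genes higher in mutant than in WT eyes at 5 dpf. Telencephalon and diencephalon factors had 11 of 21 genes higher (median 1.02), inner ear genes 6 of 9 (median 1.015) and tooth and bone matrix genes 5 of 11 (median 0.86), with none lower in these lists. The otolith matrix gene stm had 45.0 cRPKM in mutant and 9.24 cRPKM in WT eyes, the growth hormone gene gh1 of the pituitary 47.5 cRPKM in mutant and 12.9 cRPKM in WT eyes, and the fin fold gene and1 10.2 cRPKM in mutant and 1.70 cRPKM in WT eyes. The WT library at 5 dpf also held such RNA, though less than at 72 hpf except for pituitary genes, which were nearly equal. Pituitary genes summed to 111 cRPKM in mutant and 63.9 cRPKM in WT eyes at 5 dpf, after 66.2 and 64.3 cRPKM at 72 hpf. Fin fold genes summed to 41.2 and 2.84 cRPKM at 5 dpf, after 4.68 and 41.9 cRPKM. Inner ear genes summed to 223 cRPKM in mutant and 138 cRPKM in WT eyes at 5 dpf, after 169 and 217 cRPKM at 72 hpf. Telencephalon and diencephalon genes had 370 and 265 cRPKM at 5 dpf, after 425 and 380 cRPKM. Tooth and bone matrix genes had 1048 and 561 cRPKM at 5 dpf, after 1025 and 1227 cRPKM. The part of dissection in these values was not tested.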
